A study of Rattus norvegicus with 17 samples.

Results

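Histones are the proteins that package DNA in the nucleus, and 5 histone genes detected in rat gastrocnemius, a hindlimb muscle, are described here across healthy rats and rats with a tumor. The genes were chosen by name as histone genes with enough counts to be tested, out of a longer list of replication-dependent histone names. They are not all that could be tested, since 12 other entries with such names were tested too and are described further below. The 5 names stood on 6 of the 32495 named entries of the count table, because Hist1h2ail1 was listed on 2 entries that nothing in the table tells apart. Of these 6 entries, 5 passed the expression filter and were tested among 11856 entries, and the second Hist1h2ail1 entry did not. The filter asked for at least 1.60 CPM, counts scaled to a common library size, in at least 5 samples. At the low end inside it, Hist2h2aa3 averaged 3.29 CPM and reached that level in 14 of 16 samples. Just outside it, the second Hist1h2ail1 entry averaged 1.17 CPM and reached it in 4 samples, all healthy. None of the 5 passed through the healthy group alone, since each reached the level in at least 5 chemotherapy and 4 tumor samples.

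Of the samples, 6 were from tumor-bearing rats treated with chemotherapy, 5 from tumor-bearing rats without it and 5 from healthy rats, and the titles put all of them on the control diet. The 17 deposited libraries gave 16 samples, because libraries 11 and 12, both from the chemotherapy group, were summed as 1 sample, called library 11. The labels do not name the tumor, the agent, the strain, the sex, the age or the time of sampling. They do not say whether the libraries came from separate animals, so p-values measure the spread between these samples, which may be technical. Libraries were made from total RNA after removal of ribosomal RNA, with no selection for poly(A) tails.

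Replication-dependent histone genes are switched on in S phase, when new DNA has to be packaged. Unlike other messages, theirs usually end in a stem-loop bound by the protein Slbp and carry no poly(A) tail. Histone variants such as H3f3a and H2az1 are made outside S phase too, from messages with poly(A) tails. Mature muscle fibers no longer divide, so S phase in muscle is a matter of the smaller cells around them, such as satellite, endothelial, connective tissue and blood-borne cells.

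Hist1h2bo encodes a core histone of the H2B family, and Hist2h2aa3 one of the H2A family. Hist1h2ail1 is named as an H2A gene, but the RefSeq gene of that symbol has H3 histone among its synonyms. Translated, the coding start in its promoter window had the same residues as the H3 gene Hist2h3c2 at 11 of 11 codons, against 2 of 11 for the H2A gene Hist1h2af, so that gene reads as an H3 gene. Which of the 2 table entries of the name it stands for is not given. H2ax encodes H2A.X, the form of H2A that is phosphorylated around DNA breaks, and its messages exist both with a stem-loop and with a poly(A) tail. H1f5 encodes a linker histone of the H1 family, which binds DNA where it enters and leaves the nucleosome. In the RefSeq annotation of build GRCr8, Hist1h2bo and H1f5 lie on chromosome 17 with 2 annotated genes between them, Hist1h2ai and Hist1h3b, and Hist1h2ail1 lies further off on the same chromosome. H2ax lies on chromosome 8. Hist2h2aa3 is a RefSeq synonym of 2 genes on chromosome 2, Hist2h2aa2 and H2ac18. Core histone genes of 1 family are near-identical, so reads could have been split among copies in ways the table does not show, and values of single genes are uncertain to that extent.

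The promoters of the 4 genes matched by symbol are shown because the 5 genes varied together across libraries, as described below. Each runs from 250 bases before to 50 bases after the annotated start in RefSeq, build GRCr8, written 5′ to 3′ on the gene's strand. Capitals mark 3 motifs on either strand: the CCAAT box, the TATA box with the letters TATAAA, and the H1 box with the letters AAACACA. No matches overlap, and positions are those of a motif's left end.
Hist1h2bo promoter, GRCr8 chr17:47413740-47414039, minus strand: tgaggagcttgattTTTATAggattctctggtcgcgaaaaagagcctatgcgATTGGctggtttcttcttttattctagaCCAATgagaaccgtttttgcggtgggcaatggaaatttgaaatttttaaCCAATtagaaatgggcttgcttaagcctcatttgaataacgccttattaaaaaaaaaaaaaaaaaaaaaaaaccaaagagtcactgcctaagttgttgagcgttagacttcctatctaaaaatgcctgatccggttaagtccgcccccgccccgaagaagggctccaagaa
Hist1h2ail1 promoter, GRCr8 chr17:41997079-41997378, minus strand: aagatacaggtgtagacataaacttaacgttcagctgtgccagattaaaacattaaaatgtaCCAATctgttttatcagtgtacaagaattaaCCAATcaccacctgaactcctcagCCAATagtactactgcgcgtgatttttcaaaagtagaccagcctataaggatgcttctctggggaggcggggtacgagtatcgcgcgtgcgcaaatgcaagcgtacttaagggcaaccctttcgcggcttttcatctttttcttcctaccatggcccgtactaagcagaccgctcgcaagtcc
H2ax promoter, GRCr8 chr8:53568468-53568767, plus strand: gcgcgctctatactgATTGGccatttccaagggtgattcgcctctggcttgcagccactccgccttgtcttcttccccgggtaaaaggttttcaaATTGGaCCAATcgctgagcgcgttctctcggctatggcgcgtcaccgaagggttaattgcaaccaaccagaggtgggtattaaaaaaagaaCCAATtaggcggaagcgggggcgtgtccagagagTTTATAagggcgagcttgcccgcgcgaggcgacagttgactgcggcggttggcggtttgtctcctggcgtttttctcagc
H1f5 promoter, GRCr8 chr17:47421625-47421924, plus strand: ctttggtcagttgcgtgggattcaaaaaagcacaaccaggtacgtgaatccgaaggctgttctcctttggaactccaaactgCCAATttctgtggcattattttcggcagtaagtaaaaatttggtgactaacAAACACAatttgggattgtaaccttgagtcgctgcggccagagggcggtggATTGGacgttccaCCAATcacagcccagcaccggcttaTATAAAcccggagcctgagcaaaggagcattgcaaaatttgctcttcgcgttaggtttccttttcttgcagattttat
All 4 held CCAAT, at 3 places in Hist1h2bo, Hist1h2ail1 and H1f5 and at 4 in H2ax. Of all 33469 promoters of the same length, 37.5% held it on either strand. TATAAA stood on the reverse strand 30 bases before the start of H2ax, on the forward strand 28 bases before that of H1f5, and on the reverse strand 236 bases before that of Hist1h2bo, against 14.2% of all promoters. The annotated start of Hist1h2bo falls on a start codon, atg, so its positions may be counted from the coding sequence. They may not compare with those of H2ax and H1f5. AAACACA, known from H1 gene promoters, was found in H1f5 alone of the 4 and in 7.0% of all promoters. The octamer ATTTGCAT, known from H2B promoters, and the E2F motifs TTTCGCGC and TTTGGCGC were in none of the 4, and in 1.78% and 0.792% of all promoters. Of the 17 replication-dependent histone names tested, 14 matched a promoter, of which 13 held CCAAT and 10 held TATAAA. Of the same 14, 5 held the octamer, 3 held AAACACA and 1 held an E2F motif. These matches are descriptions of letters in the window.

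Total counts ranged from 3023899 to 15777909 per deposited library. The 7 muscle fiber markers found in the table, among them Acta1 and Ckm, summed to between 171930 and 304849 CPM in each sample, so the labelled tissue's markers were abundant throughout. Healthy libraries 1, 3 and 4 lay at one end of the first principal component, at -27.7, -33.0 and -42.0, while healthy libraries 2 and 5 lay at 10.4 and -7.18, within the range of the tumor samples (-19.8 to 20.9). The submitters' names for the alignments carry a suffix that is not explained, MB for healthy libraries 1 to 4 and library 11 and VM for the remaining samples. The comparisons of the 5 genes with healthy rats are therefore given with all samples and without healthy libraries 1, 3 and 4.

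Hist1h2bo ranged from 1.25 through a median of 3.39 to 6.27 CPM in the 6 chemotherapy samples. It was at 2.21, 2.86, 7.41, 4.45 and 2.77 CPM in tumor libraries 6 to 10, and at 10.0, 4.12, 12.1, 33.3 and 7.12 CPM in healthy libraries 1 to 5. Healthy library 4 stood far above every other sample, healthy libraries 3 and 1 came next, and healthy library 2 lay within the range of both tumor groups. Raw counts behind these values ran from 4 in library 15 to 493 in library 4.

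Hist2h2aa3 ranged from 1.14 through a median of 1.76 to 3.37 CPM in chemotherapy samples. It was at 0.848, 1.52, 3.70, 2.38 and 5.36 CPM in tumor libraries 6 to 10, and at 6.23, 4.12, 7.17, 8.10 and 1.72 CPM in healthy libraries 1 to 5. The healthy and tumor ranges overlapped widely, and healthy library 5 lay below the chemotherapy median. It had the fewest reads of the 5 tested entries, between 5 and 120 counts a sample.

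Hist1h2ail1, on the entry that was tested, ranged from 1.21 through a median of 2.28 to 4.54 CPM in chemotherapy samples. It was at 3.22, 2.19, 5.13, 3.02 and 7.96 CPM in tumor libraries 6 to 10, and at 12.5, 3.84, 8.22, 18.5 and 5.16 CPM in healthy libraries 1 to 5. Only 1 of the 5 healthy samples, library 2, lay inside the chemotherapy range, whereas 3 lay above every tumor sample. The second entry of that name, untested, averaged 0.843 ± 0.436 CPM in chemotherapy, 0.634 ± 0.455 in tumor and 2.10 ± 0.829 in healthy samples (SD, n = 6, 5 and 5).

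H2ax, the gene of the histone that marks DNA breaks, ranged from 5.70 through a median of 7.55 to 10.8 CPM in chemotherapy samples. It was at 5.60, 5.62, 6.74, 7.30 and 8.65 CPM in tumor libraries 6 to 10, and at 14.2, 6.32, 15.2, 24.0 and 7.74 CPM in healthy libraries 1 to 5. Healthy libraries 1, 3 and 4 lay above all other samples, and healthy libraries 2 and 5 lay inside the range of the tumor-bearing rats.

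H1f5 ranged from 5.69 through a median of 6.63 to 8.37 CPM in chemotherapy samples. It was at 3.90, 7.15, 13.3, 5.08 and 10.9 CPM in tumor libraries 6 to 10, and at 13.4, 3.84, 16.4, 30.2 and 8.10 CPM in healthy libraries 1 to 5. The lowest of all 16 samples was healthy library 2 and the 3 highest were healthy libraries 4, 3 and 1, so the healthy group spanned both ends. Healthy libraries 1, 3 and 4 were the 3 highest samples for each of the 5 genes.

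**Figure D1:**
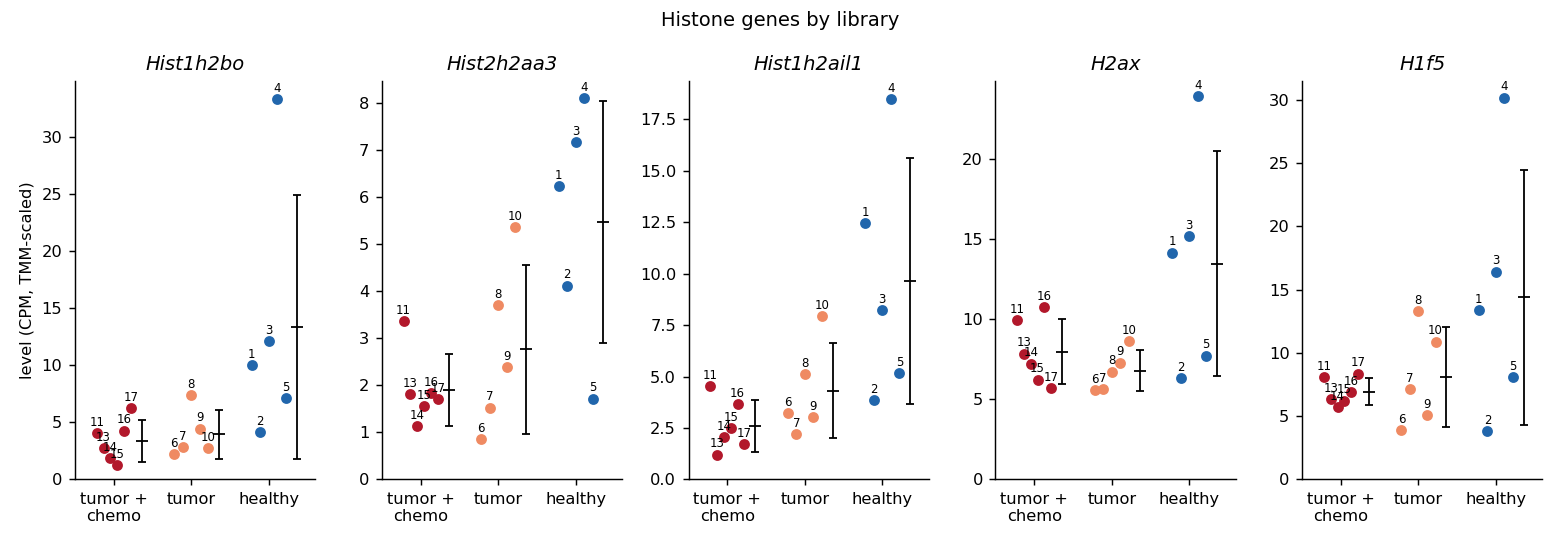
Levels of the 5 histone genes in CPM (scaled by TMM) by sample, on linear axes from 0. Points are samples labelled by library number, and black bars are the mean ± SD of each group (n = 6 tumor with chemotherapy, 5 tumor, 5 healthy). Healthy libraries 1, 3 and 4 are the 3 highest points in every panel, and healthy library 4 reaches 33.3 CPM for Hist1h2bo.

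Against healthy rats, tumor-bearing rats given chemotherapy had lower levels of Hist1h2bo, Hist1h2ail1 and Hist2h2aa3. These 3 of the 5 genes fell (edgeR quasi-likelihood test, Benjamini-Hochberg adjusted p below 0.05 over all 11856 entries) and the other two, H1f5 and H2ax, were not called. Across all entries 6.41% were called lower in this comparison. Since the genes were chosen for being detected histone genes with this result known, their calls are a description. Hist1h2bo averaged 3.41 ± 1.84 CPM in chemotherapy samples and 13.3 ± 11.6 CPM in healthy samples (SD, n = 6 and 5), a log2 fold change of -1.98 ± 0.47 (SE; edgeR adjusted p = 0.0271). Hist1h2ail1 averaged 2.61 ± 1.26 against 9.64 ± 5.96 CPM, at -1.82 ± 0.41 (adjusted p = 0.0261). Hist2h2aa3 averaged 1.90 ± 0.763 against 5.47 ± 2.56 CPM, at -1.46 ± 0.43 (adjusted p = 0.0365). These 3 genes encode core histones.

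The linker histone gene H1f5 averaged 6.94 ± 1.08 CPM in chemotherapy and 14.4 ± 10.1 CPM in healthy samples, a log2 fold change of -1.08 ± 0.38 (SE; edgeR adjusted p = 0.0567). H2ax averaged 7.96 ± 2.03 against 13.5 ± 7.03 CPM, at -0.77 ± 0.28 (adjusted p = 0.0601). All 6 chemotherapy samples lay below the healthy median for each of the 5 genes. This had to be so, because healthy libraries 1, 3 and 4 were the 3 highest of all samples. The groups overlapped for every one of the 5 genes, while 1.97% of all entries were lower with no overlap. The median log2 fold change was -1.46 over the 5 and -0.02 over all entries.

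The calls rested on which libraries were included. Without healthy library 1, 3 or 4, or without chemotherapy library 13, 14 or 15, edgeR called 0 of the 5 genes and 0 entries in the whole table, although the fold change of Hist1h2bo stayed between -2.08 and -1.30 in these 6 fits. Without healthy library 2 or 5, all 5 were called lower. Without tumor library 8, H1f5 was called as well (adjusted p = 0.0436), and without library 11, H2ax (0.0424). Hist2h2aa3 alone was lost without library 16 or 17 (adjusted p = 0.0604 and 0.0561). With healthy libraries 1, 3 and 4 all left out, none was called, and healthy libraries 2 and 5 alone remained. The log2 fold changes were then -0.73 for Hist1h2bo, -0.72 for Hist1h2ail1, -0.46 for Hist2h2aa3, 0.18 for H2ax and 0.17 for H1f5 (edgeR adjusted p from 0.899 to 0.966). Since the libraries left out were the 3 highest samples for each of the 5 genes, the upward move of the fold changes was set in advance.

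**Figure D2:**
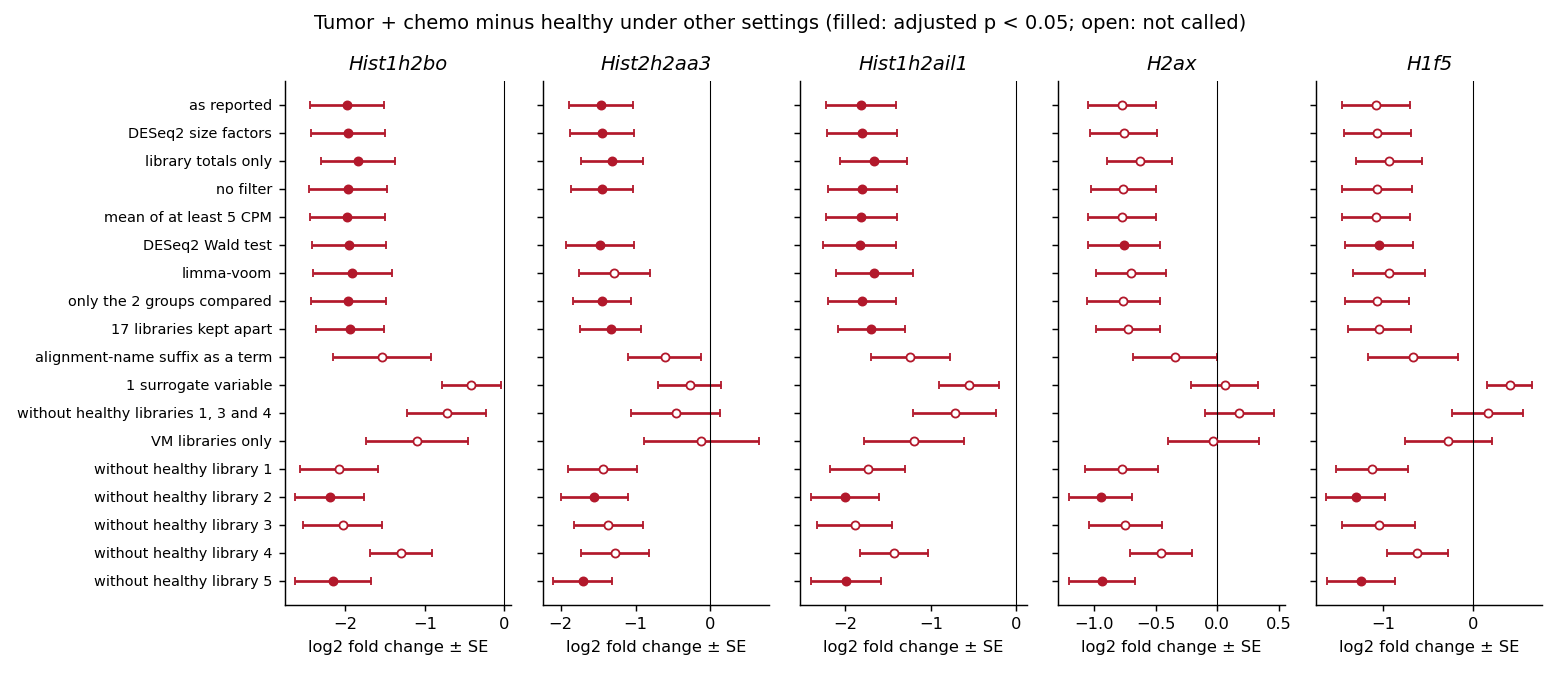
Log2 fold changes ± SE of the 5 genes, tumor with chemotherapy minus healthy, under other settings and without single or several healthy libraries. Filled points have an adjusted p below 0.05. The fold changes lie close to those reported under the scalings, filters and tools. They lie nearer 0 or above it with 1 surrogate variable or without healthy libraries 1, 3 and 4. With the alignment-name suffix as a term their median is -0.67, against -1.46 as reported.

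Tumor-bearing rats without chemotherapy also had lower mean levels than healthy rats, but none of the 5 genes passed the test. Hist1h2bo averaged 3.94 ± 2.11 CPM in tumor and 13.3 ± 11.6 CPM in healthy samples (SD, n = 5 each), a log2 fold change of -1.77 ± 0.48 (SE; edgeR adjusted p = 0.211). Hist1h2ail1 averaged 4.30 ± 2.31 against 9.64 ± 5.96 CPM, at -1.21 ± 0.42 (adjusted p = 0.226). H2ax averaged 6.78 ± 1.27 against 13.5 ± 7.03 CPM, at -1.03 ± 0.29 (adjusted p = 0.211). Hist2h2aa3 was at -1.01 ± 0.44 and H1f5 at -0.86 ± 0.39 (adjusted p = 0.252 and 0.263).

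All 5 tumor samples lay below the healthy median for each of the 5 genes, again because healthy libraries 1, 3 and 4 were the 3 highest of all samples. By edgeR 0 of the 5 genes and 0% of all entries were called in this comparison, with an unadjusted p below 0.05 for all 5 genes and, on the lower side, for 9.12% of all entries. Limma-voom called 0 of the 5, and DESeq2 0 of the 3 to which it gave an adjusted p, H2ax, Hist1h2bo and H1f5. Without healthy library 2, H2ax and Hist1h2bo were called lower (adjusted p = 0.0445 for both), and 259 entries in all were. Without healthy libraries 1, 3 and 4, the 3 highest samples, no gene was called, and healthy libraries 2 and 5 alone remained. The log2 fold changes were then -0.53 for Hist1h2bo, -0.11 for Hist1h2ail1, -0.08 for H2ax, -0.01 for Hist2h2aa3 and 0.38 for H1f5. Both comparisons use the same 5 healthy samples, so they are not independent.

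Between the tumor-bearing groups the 5 genes differed little beside their errors. With chemotherapy the log2 fold changes were 0.25 ± 0.29 for H2ax, -0.21 ± 0.50 for Hist1h2bo, -0.22 ± 0.39 for H1f5, -0.45 ± 0.45 for Hist2h2aa3 and -0.61 ± 0.43 for Hist1h2ail1 (SE; edgeR adjusted p from 0.793 to 0.923). H2ax was the 1 gene of the 5 with a higher mean after chemotherapy, at 7.96 ± 2.03 CPM in chemotherapy and 6.78 ± 1.27 CPM in tumor samples, with overlapping groups. None of the 5 was called by edgeR or limma-voom, nor H2ax or H1f5 by DESeq2, which gave the other 3 no adjusted p. None of the 5 had an unadjusted p below 0.05 in edgeR, against 3.81% of all entries on the lower side, and 0% of all entries were called. The errors leave room for a change of either sign, so the test does not show that the groups are alike.

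The other replication-dependent histone genes were far from silent, and some had many more reads than the 5. Besides the 6 entries above, 30 entries carried such names, of which 12 were tested, 18 were not and 3 of those had no count in any library. In chemotherapy against healthy samples 8 of the 12 fell and 4 were not called, with a median log2 fold change of -1.37. Across all entries 6.41% were called lower. The 8 were the H4 genes Hist1h4m and Hist2h4a, the H3 gene Hist1h3b, the linker genes H1f1 and H1f4, and 3 entries with H2A names. These 3 were Hist1h2ah, Hist1h2ak and 1 of the 2 named Hist1h2an, which the table lists as a pseudogene. Hist1h2ak and that Hist1h2an entry averaged 0.925 and 1.13 CPM in chemotherapy, 1.52 and 1.41 in tumor, and 3.96 and 4.54 in healthy samples. Both may have passed the filter of 1.60 CPM through the healthy group, as may H2bc12, not called, at 1.29, 1.49 and 4.31 CPM. This was not examined. Like all calls in chemotherapy against healthy rats, here and below, those of the 8 ended without any 1 of the 6 libraries named above. Hist1h4m averaged 25.7 ± 3.86 CPM in chemotherapy and 55.9 ± 21.6 CPM in healthy samples (log2 fold change -1.12 ± 0.26 SE, edgeR adjusted p = 0.0271). Hist1h2ah averaged 1.90 ± 1.37 against 6.41 ± 4.94 CPM, at -1.89 ± 0.51 (adjusted p = 0.0308).

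Of the 4 that were not called, H1f2, a linker histone gene, averaged 140.0 CPM in chemotherapy and 220.2 CPM in healthy samples, at -0.65 ± 0.24. Hist1h2bq, of the H2B family, was at -0.54 ± 0.19, H2ac20 at -1.12 ± 0.41 and H2bc12 at -1.86 ± 0.62 on the log2 scale (edgeR adjusted p from 0.0506 to 0.0664). The entry H4f3, picked out after its values were seen because its name was on no list, was at -1.47 ± 0.37 (adjusted p = 0.0289). RefSeq lists the linker gene name Hist1h1d as its synonym, so its family is uncertain. The 18 untested entries are those that the filter left out, so which entries they are depends on the values compared. They summed to between 1.97 and 8.37 CPM in chemotherapy, 4.24 and 8.48 in tumor, and 5.22 and 34.8 CPM in healthy samples. The healthy median was 8.88 CPM, and the highest value was that of library 4.

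All 36 replication-dependent entries, tested or not, summed to 365 ± 80.2 CPM in chemotherapy, 437 ± 169 CPM in tumor and 731 ± 352 CPM in healthy samples (SD, n = 6, 5 and 5). Healthy libraries 1, 3 and 4 reached 754, 868 and 1223 CPM, healthy library 5 was at 505 CPM and healthy library 2 at 305 CPM. Tumor libraries 8 and 10, at 628 and 615 CPM, stood above the other tumor libraries, which lay between 298 and 331 CPM. Without healthy libraries 1, 3 and 4 the median log2 fold change, chemotherapy minus healthy, was -0.28 over the 13 other replication-dependent entries then tested, and none was called. With 1 surrogate variable in the fit it was 0.07 over the 12, of which 5 were negative and none was called. With the suffix of the alignment names as a term all 12 were negative, with a median of -0.93 and none called. In tumor against healthy samples all 12 fold changes were negative with a median of -0.998, and in chemotherapy against tumor all 12 were negative with a median of -0.31, with 0 called by edgeR in both. Both directions turned under other settings: without healthy libraries 1, 3 and 4 the median in tumor against healthy was 0.07, with 5 of 13 negative, and with 1 surrogate variable that in chemotherapy against tumor was 0.19, with 2 of 12 negative.

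Histone variants did not follow that order. Of 13 variant entries 6 were tested, and in chemotherapy against healthy samples 1 rose, 5 were not called and none fell, with a median log2 fold change of 0.31, while 7.3% of all entries were called higher. Scaled by library totals alone, 3 of the 6 were called higher. H3f3a, which encodes the replacement histone H3.3, averaged 89.7 ± 8.90 CPM in chemotherapy and 67.4 ± 6.55 CPM in healthy samples (log2 fold change 0.41 ± 0.11 SE, edgeR adjusted p = 0.0308), with no overlap. Its sister gene H3f3b was at 0.27 ± 0.16, H3f3c, listed as protein-coding in the table and as a pseudogene in RefSeq, at 0.40 ± 0.16, and the H2A.Z genes H2az1 and H2az2 at 0.34 ± 0.16 and 0.19 ± 0.16. Macroh2a1, which encodes a large H2A variant, was at -0.10 ± 0.11, and turned positive when libraries were scaled by their totals alone. The 13 variant entries summed to between 272 and 315 CPM in chemotherapy, 229 and 296 CPM in tumor and 213 and 260 CPM in healthy samples. Healthy library 4, the highest for the 5 genes, had the lowest variant sum of all samples. In tumor against healthy samples none of the 6 was called (median 0.12).

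**Figure D3:**
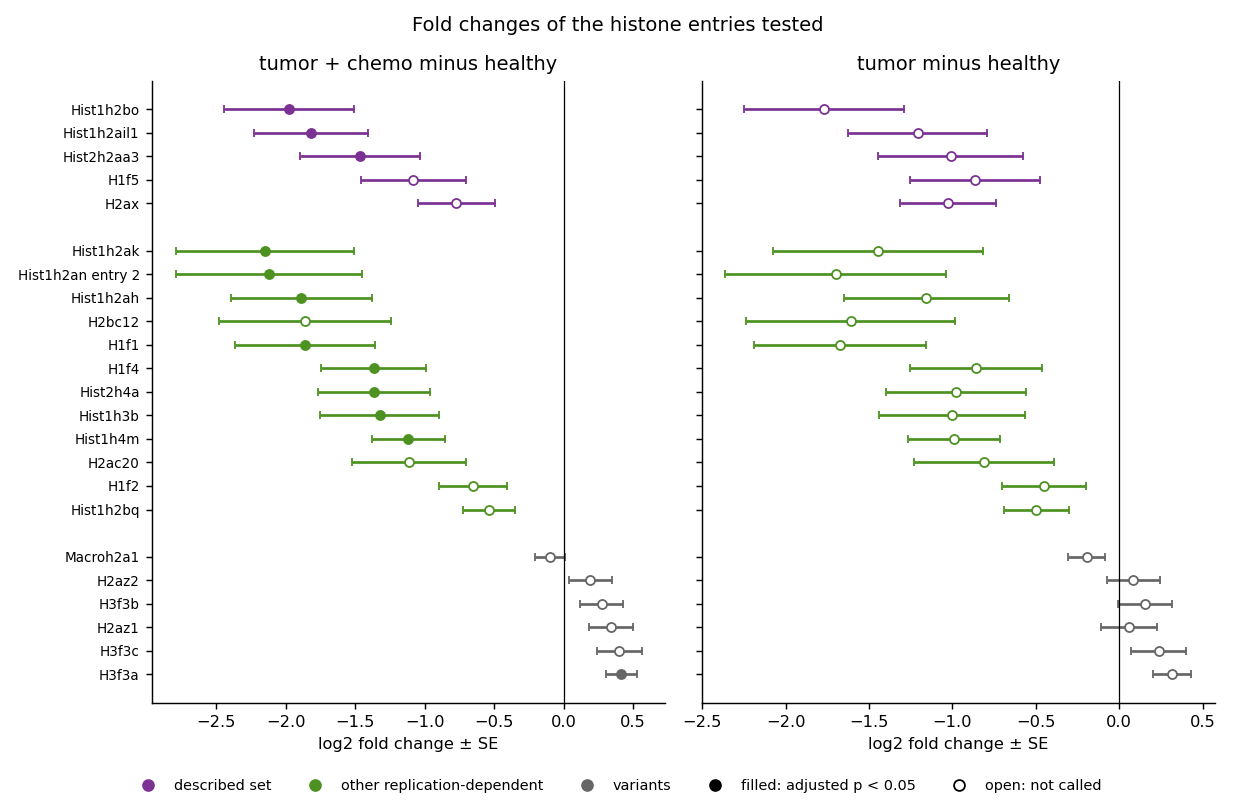
Log2 fold changes ± SE of the histone entries tested, tumor with chemotherapy minus healthy on the left and tumor minus healthy on the right, by class. Filled points have an edgeR adjusted p below 0.05. All 17 replication-dependent entries lie left of 0 in both panels, and of the 6 variants Macroh2a1 alone does.

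Small noncoding RNAs, which also lack poly(A) tails, moved with the histone genes from library to library. The 3400 entries typed as small noncoding RNA took 0.881% ± 0.273 of counts in chemotherapy, 1.25% ± 0.596 in tumor and 2.16% ± 1.09 in healthy samples (SD, n = 6, 5 and 5). With chemotherapy the share was lower than in healthy samples by a two-sided exact permutation test (p = 0.0152, adjusted over 3 comparisons 0.0455). The same exact test gave p = 0.143 (adjusted 0.214) between tumor and healthy samples and p = 0.221 between the tumor-bearing groups. Healthy libraries 1, 3 and 4 were at 2.57%, 2.45% and 3.55%, healthy libraries 2 and 5 at 0.70% and 1.51%, and tumor libraries 8 and 10 at 2.10% and 1.64%. Chemotherapy samples ran from 0.614% to 1.31%, so healthy library 2 lay inside their range. The permutation test was not repeated without healthy libraries 1, 3 and 4. Of 36 tested entries from a separate list of small noncoding names, 14 fell with chemotherapy against healthy rats. Across all entries 6.41% were called lower. Of the 36, 22 were not called and none rose (median log2 fold change -1.32). Without healthy libraries 1, 3 and 4 none was called and the median was -0.23. Vault, the RNA of the vault particle, averaged 11.9 ± 4.79 CPM in chemotherapy and 52.2 ± 24.9 CPM in healthy samples. An entry of Metazoa_SRP, a signal recognition particle RNA, averaged 4.09 ± 1.12 against 14.5 ± 8.36 CPM. Their part in the histone result was not tested.

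**Figure D4:**
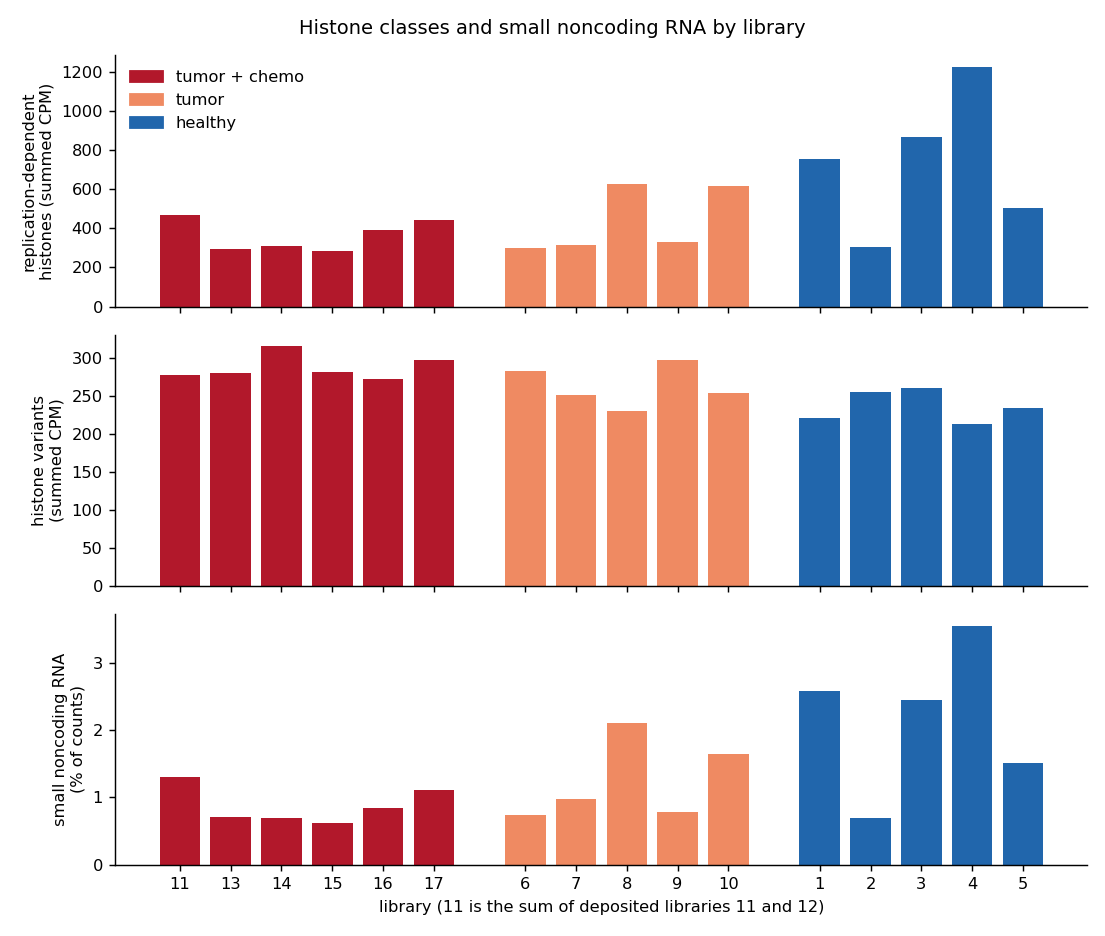
Summed CPM of all 36 replication-dependent histone entries, summed CPM of the 13 histone variant entries, and percent of counts on small noncoding RNA entries, by sample. The top and bottom panels are highest in healthy libraries 1, 3 and 4 and, among tumor libraries, in 8 and 10, whereas the variant sums lie between 213 and 315 CPM throughout.

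Among genes of DNA replication no decrease was called. Of 31 tested S phase genes in chemotherapy against healthy samples, 1 rose, none fell and 30 were not called, with log2 fold changes from -0.91 to 1.24, a median of 0.19 and 12 of 31 negative. Across all entries 7.3% were called higher and 6.41% lower. Scaled by library totals alone, 6 of the 31 were called higher. The difference from the histone genes was not tested. Rfc1, the large subunit of the clamp loader, averaged 42.4 ± 8.31 CPM in chemotherapy and 21.6 ± 8.83 CPM in healthy samples (0.99 ± 0.24 SE, edgeR adjusted p = 0.0271). Prim1, the primase, was at 0.87 ± 0.32 and not called. None of 8 tested genes of mitosis was called (median -0.02), with the checkpoint kinase gene Bub1 at 0.56 ± 0.21 and Cdc20, an activator of the anaphase-promoting complex, at -1.02 ± 0.50. Another 14 of 22 mitosis genes in the table had too few counts to be tested, and their sum with the tested ones ran from 38.3 to 101 CPM over all samples.

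Among genes that process histone messages or carry histones, calls were made in both directions. Of 20 tested genes of histone message processing 3 rose, 2 fell and 15 were not called (median log2 fold change 0.04, chemotherapy minus healthy), which is near the 7.3% of all entries called higher and 6.41% called lower. Casp8ap2, also called FLASH, which is needed for the cut at the end of histone messages, averaged 20.5 ± 5.01 CPM in chemotherapy and 8.03 ± 5.64 CPM in healthy samples. Sympk, the scaffold of the cutting complex, averaged 31.0 ± 7.02 against 56.0 ± 20.7 CPM (log2 fold change -0.85 ± 0.23 SE, edgeR adjusted p = 0.0303). Of 24 tested histone chaperone genes 5 rose, 1 fell and 18 were not called, beside the same 7.3% and 6.41% of all entries. The median of the 24 was 0.37, and 8 of them were negative. Npm1, nucleophosmin, averaged 115 ± 27.2 against 52.9 ± 24.0 CPM, and Ipo4, an importin that carries histones H3 and H4, 45.0 ± 8.03 against 82.1 ± 20.5 CPM.

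**Figure D5:**
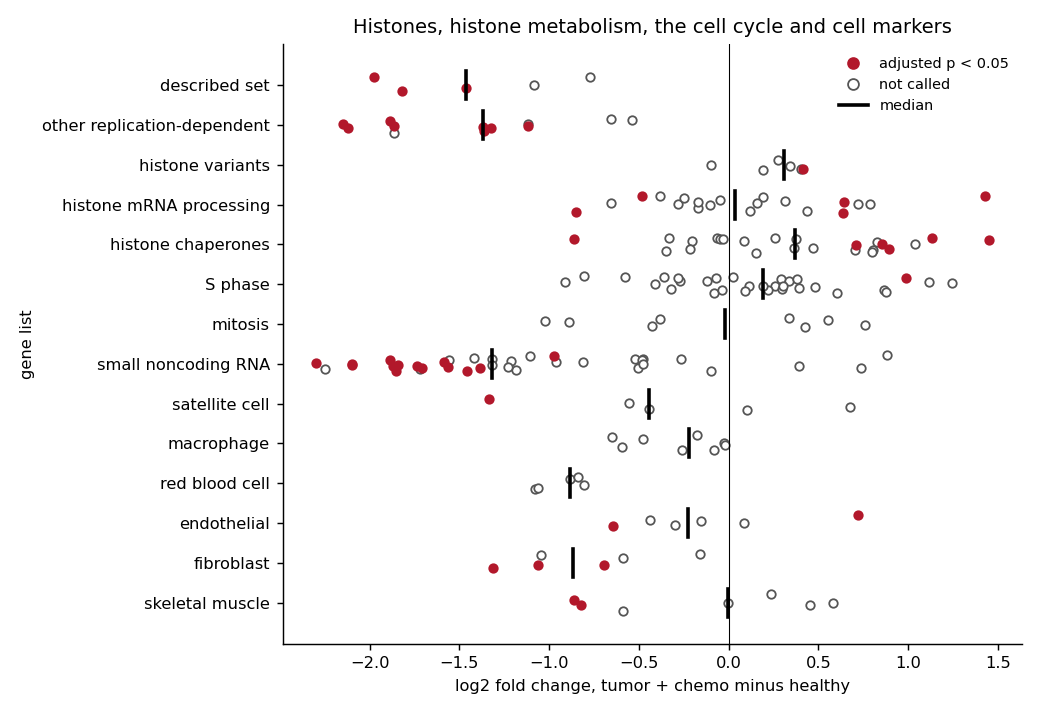
Log2 fold changes, tumor with chemotherapy minus healthy, of the tested members of each gene list. Red points have an edgeR adjusted p below 0.05, open points do not, and black bars are medians. The replication-dependent histone and small noncoding lists have medians from -1.46 to -1.32, and the S phase median is 0.19.

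Markers of the cells that could divide in muscle were examined beside the histone genes, with values in chemotherapy and healthy samples. For the calls below, the shares over all entries were 6.41% called lower and 7.3% called higher. Of 5 satellite cell markers 1 fell, Pax7, at 1.74 ± 0.787 against 4.62 ± 1.36 CPM. The 5 log2 fold changes ran from -1.34 to 0.67 with a median of -0.45, that of Cdh15, and 3 were negative. Their sums ran from 33.0 to 62.4 CPM in chemotherapy, 35.8 to 48.6 in tumor and 49.8 to 84.7 CPM in healthy samples. Of 6 fibroblast markers 3 fell, among them Cd34, at 50.6 ± 7.55 against 105 ± 34.0 CPM, and Col3a1, at 1084 ± 393 against 2695 ± 1103 CPM. All 6 log2 fold changes were negative, from -1.31 to -0.16 with a median of -0.87. Fibroblast sums ran from 2275 to 10848 CPM in chemotherapy, 2836 to 13067 in tumor and 4616 to 14309 CPM in healthy samples. Of 6 endothelial markers Emcn rose, at 17.6 ± 4.05 against 10.7 ± 1.97 CPM, and Tie1 fell, at 28.8 ± 4.68 against 45.1 ± 5.60 CPM. Their log2 fold changes ran from -0.64 to 0.72 with a median of -0.23, and 4 of the 6 were negative. The endothelial sums were 181 to 220 CPM in chemotherapy, 208 to 269 in tumor and 207 to 257 CPM in healthy samples.

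None of 8 macrophage markers was called, with log2 fold changes from -0.65 to -0.02 and a median of -0.22. Csf1r was at -0.65 ± 0.25 and Cd68 at -0.60 ± 0.30 (SE), and the sums were 211 to 420 CPM in chemotherapy, 173 to 332 in tumor and 207 to 443 CPM in healthy samples. None of 5 red blood cell genes was called, with Hba-a1 at -1.08 ± 0.40 and Hbb-bs at -0.84 ± 0.31. Their sums were 124 to 917 CPM in chemotherapy, 227 to 588 in tumor and 440.4 to 1379 CPM in healthy samples, and Hba-a3 was at 0 in every library. Of 9 lymphocyte markers only Cd4 had counts enough to be tested, at -0.48 ± 0.22 and not called. The lymphocyte sums were 14.9 to 84.4 CPM in chemotherapy, 15.6 to 28.0 in tumor and 17.3 to 37.7 CPM in healthy samples. Library 17 alone gave the upper end in chemotherapy, and the next highest there was library 11 at 22.5 CPM. The 7 neutrophil markers summed to at most 6.65 CPM in any sample, with Camp and Elane at 0 throughout. Of the 7 muscle markers Acta1 and Ckm fell, at -0.86 ± 0.23 and -0.82 ± 0.25, and 5 were not called, while 6.41% of all entries were called lower. The 7 log2 fold changes ran from -0.86 to 0.58 with a median of -0.0042, and 4 were negative. In whole muscle fewer cells of a type and less RNA per cell cannot be told apart, and the part of these cells in the histone values was not tested.

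The 5 genes varied together across samples. Over the 16 samples, Pearson's r between their log2 CPM (prior count 2) ran from 0.73, for Hist2h2aa3 with Hist1h2bo, to 0.83, for Hist2h2aa3 with Hist1h2ail1. The samples share library effects and group differences, so these values are descriptions. For each gene the 3 closest outside the set were picked from all tested entries with an assigned symbol. Such picks are the highest of many values, so they do not compare with the 10 fixed pairs within the set. For Hist1h2bo the 3 closest were H1f1, a linker histone gene, Rnh1, the ribonuclease inhibitor, and Ubxn6 (r = 0.94, 0.94 and 0.94). For Hist1h2ail1 they were Sympk, Stub1 and Tcf25 (0.95, 0.94 and 0.94), and for Hist2h2aa3 Pwwp2b, Acta1 and Ccnd3 (0.94, 0.93 and 0.92). For H2ax they were Endog, a mitochondrial nuclease, Mettl22 and Rpl3l, a ribosomal protein of striated muscle (0.94, 0.93 and 0.93), and close to H1f5 were Zbtb7b and Nr1h2 (0.94 and 0.93). Of the genes named here as close, H1f1 was the 1 histone gene.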

How the data were processed

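RNA sequencing libraries were made from rat gastrocnemius with a stranded total RNA kit that removes ribosomal RNA, per the labels' protocols. Tools named, in no stated order, are Bowtie2, TopHat2 2.0.10, FastQC 0.11.4, Trim Galore 0.4.1 and CASAVA 1.9, per the submitters' processing notes. The build, the gene annotation and the counter were not given in the sources used here. The authors deposited raw counts of reads per gene, with no normalization. Of 32883 entries, 388 carried no gene name, held 0.102% to 0.373% of counts and were left out. Libraries 11 and 12 were closest of all pairs within a group, with a chi-square per degree of freedom of 2.03, against 5.16 for the next. They were summed as 1 sample by choice, and kept apart as an alternative. The chi-square does not settle whether they are 1 animal.

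The main test was edgeR 4.0.16 (R 4.3.3): TMM scaling, default filterByExpr (minimum count 10), robust quasi-likelihood fits of all 16 samples with a mean per group (13 residual degrees of freedom), and Benjamini-Hochberg adjustment over 11856 entries, called below 0.05. CPM values use TMM-scaled library sizes. SE is the fold change over the root of F. The fit was also run on simulated data, with an outcome that is not reported here. No group shares a replicate number with another. Alternatives were DESeq2 1.42.0, limma 3.58.1 and sva 3.50.0, and the settings given at the end. The genes and lists were chosen with earlier results of these data known. Named are the 5 genes, every tested histone entry, the 2 tested genes of each other list with the smallest p in chemotherapy against healthy, and the 3 genes most like each of the 5, of which 1 is not reported here. Exact permutation tests were two-sided. Listed names not found in the table are not analysed here.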

Additional observations from a re-analysis of the deposited data

Results flagged for a closer look

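In each of 18 sets of values (the 5 genes and the small noncoding share, in 3 groups), the highest and the lowest sample were compared with the nearest other, and 2 stood apart. Chance alone marks about 1 in 20 groups where values have a normal spread, which was not examined for these values. The sets share samples and the 5 genes vary together, so the 18 are not independent. Hist1h2bo in healthy library 4, at 33.3 CPM, lay above the next healthy sample, at 12.1 CPM, by 0.725 of the group's range. Hist2h2aa3 in chemotherapy library 11, at 3.37 CPM, lay above the next chemotherapy sample, at 1.83 CPM, by 0.69 of the range. Library 11 is the sum of deposited libraries 11 and 12 and the only chemotherapy sample with the suffix MB.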

How the results depend on the processing

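In chemotherapy against healthy rats, 3 of the 5 genes were called. DESeq2 called 5, and 0 were called with the suffix as a term, with 1 surrogate variable, without healthy libraries 1, 3 and 4, or in VM libraries alone, where 1 healthy sample is assumed to vary like the other groups. Leaving out single libraries gave 0 to 5. The count was 2 with a mean of at least 5 CPM, which drops Hist2h2aa3, and 2 with limma-voom, and 3 with DESeq2 size factors, library totals, no filter, only the 2 groups or 17 libraries apart. In tumor against healthy rats the count was 0 in all 12 other settings (DESeq2 gave 2 of the 5 no adjusted p) and 0 to 2 without single libraries. Between the tumor-bearing groups it was 0 throughout.

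Some fold changes turned. In tumor against healthy rats Hist2h2aa3 was at 0.29 with the suffix term and 0.67 in VM libraries, and H1f5 at 0.11 with 1 surrogate variable, 0.38 without healthy libraries 1, 3 and 4 and 0.0049 in VM libraries. In chemotherapy against healthy rats, H2ax was at 0.060 and H1f5 at 0.41 with 1 surrogate variable, and at 0.18 and 0.17 without healthy libraries 1, 3 and 4. In chemotherapy against tumor, Hist1h2bo was at 0.26 and H1f5 at 0.30 with 1 surrogate variable, and at 0.18 and 0.045 without tumor library 8, the upper ends of ranges from -0.44 and -0.38 without single libraries. The cause was not tested.

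Over the whole table, chemotherapy against healthy gave 865 entries higher and 760 lower. These became 1669 and 348 with library totals, which moved the median of all entries to 0.12 in log2. They were 474 and 410 with no filter, 1454 and 1123 with DESeq2, 1564 and 880 with limma-voom and 0 in the 4 settings that called none of the 5. Leaving out single libraries gave 0 to 2024 higher and 0 to 1775 lower. No paired analysis was possible because the groups share no replicate number. Depth limits the 5 genes: in the shallowest library, 15, they held 4 to 20 counts each.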
